A study of Mus musculus with 14 samples.

Results

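The S100 proteins and annexins described here are 10 genes, S100a4, S100a6, S100a10, S100a11, S100a13, Anxa1, Anxa2, Anxa4, Anxa5 and Anxa6. Every non-control probe whose gene name on the array is one of these symbols was taken, which gave 13 probes of 55681 in all, 6 for S100 genes and 7 for annexins. S100a4, Anxa1 and Anxa4 have 2 probes each. The samples were peritoneal B-1a cells, innate-like B lymphocytes of the body cavity, from Bmi1 KO mice (7 arrays) and from WT mice (7 arrays), each hybridised alone to a one-colour mouse array. Bmi1 encodes a core protein of a Polycomb complex that silences chromatin. Of the arrays, 3 Bmi1 KO and 3 WT belong to set 1 and 4 Bmi1 KO and 4 WT to set 2, the experiment sets being read from the numbering style of the sample titles. The labels give no allele, age, sex or strain, and do not say whether samples came from separate or pooled animals. The p-values therefore reflect variation among the 14 samples as labelled, and part of it can be technical.

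S100 proteins are small EF-hand proteins that mostly work as dimers and, on binding calcium, expose a surface that grips a partner protein. Annexins bind acidic phospholipids of membranes in a calcium-dependent way and take part in membrane repair, vesicle traffic and the handling of dying cells. The families meet in heterotetramers: S100A10 pairs with annexin A2, and S100A11 with annexin A1. Several of these genes are known from memory and innate-like lymphocytes and from myeloid cells.

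The 5 S100 genes lie on chromosome 3. In the mm9 positions of the array annotation the S100a13, S100a4 and S100a6 probes follow each other, 81.3 kb and then 8.43 kb apart, and the S100a11 and S100a10 probes lie 38.4 kb apart farther along the chromosome. Anxa5 is on chromosome 3 as well, and Anxa1, Anxa2, Anxa4 and Anxa6 are on chromosomes 19, 9, 6 and 11. No mm9 gene models were used here, so exon, intron and UTR are not assigned. The S100a4 probe at chr3:90409734-90409793 and the S100a6 probe at chr3:90418160-90418219 are shown because these paralogs could share hybridising sequence. Both are read 5′ to 3′ on the plus strand, are 60 bases long and have 1 reading frame without a stop codon, and capitals mark the longest run they share, 11 bases. 
S100a4: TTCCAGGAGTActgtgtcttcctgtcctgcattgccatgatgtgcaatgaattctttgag
S100a6: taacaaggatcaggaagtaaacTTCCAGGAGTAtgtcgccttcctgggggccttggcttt
Between probes of any 2 different genes of the 10, no shared run was longer than these 11 bases.

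The second S100a4 probe, at chr3:90409908-90409967, the Anxa2 probe at chr9:69339532-69339591 and the second Anxa1 probe at chr19:20447938-20447997 (minus strand) carry the letters AATAAA, the usual polyadenylation signal. Their 30-base windows are shown because these probes gave some of the values that dropped out below background, with the signal in capitals. 
S100a4, second probe: ctgagcaaattcAATAAAaggttttgaaac
Anxa2: tactgtgtcgtgAATAAAccgtttttactt
Anxa1, second probe: cctgagaaagaagtttacatatAATAAAat
On the strand given by the probe, AATAAA is held by 4 of the 13 probes (S100a13 too) and by 10.1% of all 55681 probes. The S100a13 probe was above background on every array. Both Anxa4 probes and the first Anxa1 probe, which lack AATAAA, also dropped out on some arrays. The match is a description of the letters, not a mapped transcript end.

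All levels below are log2 signal minus the array's 75th percentile over the 7055 probes that were well above background on all 14 arrays, so 0 is a bright probe and a difference of 1 is a 2-fold change. Levels of different probes are not set against each other. Probes well above background made up 40.6% ± 14.4 of all probes on Bmi1 KO arrays and 52.3% ± 7.24 on WT arrays (SD, n = 7 each, exact permutation p = 0.0457), ranging over 20.6 to 56.6% and 43.5 to 63.3%. Under 40% of probes were above background on 4 Bmi1 KO arrays, namely set 1 replicate 4 and set 2 replicates 1, 2 and 3, and on 0 WT arrays. In limma, 132 of 29677 fitted probes passed an adjusted p of 0.05, 1 higher and 131 lower in Bmi1 KO, and the median difference over all fitted probes was -1.02. Scaling to all probes instead moves every difference by the same amount, and that median becomes 0.34. The 2 Bmi1 probes, whose place relative to the deletion is not stated, averaged -4.38 and -6.42 on Bmi1 KO arrays against -4.14 and -8.83 on WT arrays (exact permutation p = 0.854 and 0.0814), so they check no label. B cell markers were detected throughout, 7 of 7 on every Bmi1 KO array and 6 to 7 on WT arrays. B-1a markers were above background for 2 to 6 of 6 genes on Bmi1 KO arrays and for 5 to 6 on WT arrays. Counts of 2 to 4 came from the 4 Bmi1 KO arrays under 40%, and the other Bmi1 KO arrays had 6. The summed B-1a level was lower in Bmi1 KO (exact permutation p = 0.00714). It was -2.41 to 1.07 on those 4 arrays, 0.25, 0.56 and 1.28 on the other Bmi1 KO arrays, and 0.84 to 1.96 on WT arrays. Sums of the other cell-type marker lists, B cells included, gave exact permutation p = 0.156 to 0.939. The part of brightness in the B-1a sum was not tested.

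None of the 11 fitted probes of the S100 and annexin genes passed the test (0 of 11, where 0.445% of all fitted probes were called). At an unadjusted p under 0.05, 1 of them, Anxa6, was higher and 1, Anxa2, was lower in Bmi1 KO, against backgrounds of 0.718% higher and 20% lower. Their differences were above 0 for 8 of 11 probes, with a median of 0.34, whereas 15.1% of all fitted probes were above 0. Relative to the all-probe median, 9 of 11 were above it. Among the 7 probes of the 10 genes above background on all 14 arrays, 6 had a difference above 0, with a median of 0.34, beside a median of -0.27 and 31.9% above 0 for all 7055 such probes. Brightness of the arrays moves with these figures. With brightness as a covariate, 6 of the 11 probes were above 0 and 8 above the all-probe median, which was then -0.17. Without the 4 Bmi1 KO arrays under 40%, 9 of 11 were above 0 and 9 above the all-probe median, then -0.10. The part of brightness in these figures was not tested further.

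**Figure D1:**
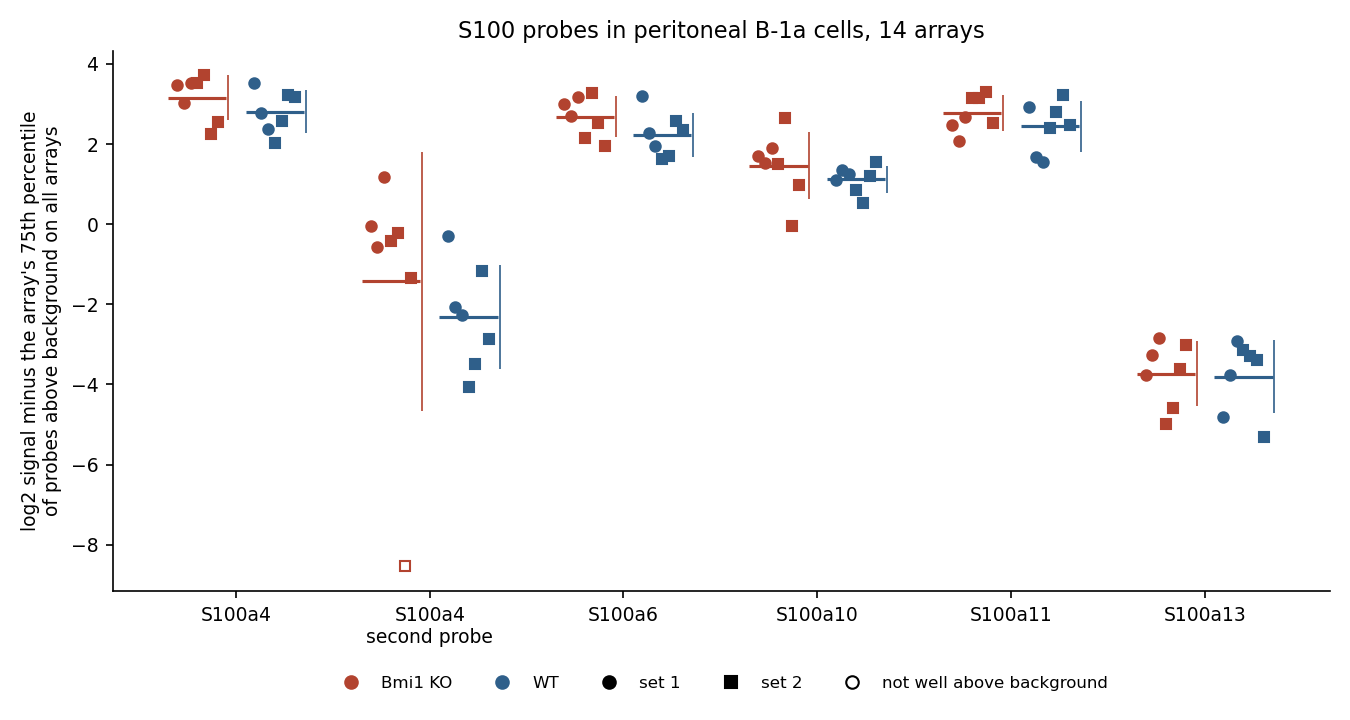
Levels of the 6 S100 probes on the 14 arrays (y axis: log2 signal minus the array's 75th percentile), Bmi1 KO left and WT right of each pair. Circles are set 1, squares set 2, open symbols are not well above background, and lines show the mean and 1 SD (n = 7). The genotypes overlap for every probe, and 1 Bmi1 KO array has the second S100a4 probe at -8.54.

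S100a4, a calcium sensor known for binding non-muscle myosin and for cell motility, was bright on all 14 arrays. Its first probe read 2.26, 3.47 and 3.72 (lowest, median, highest) on Bmi1 KO arrays, against 2.02, 2.77 and 3.51 on WT arrays. The genotypes overlapped, with 3 Bmi1 KO arrays above all WT arrays. The difference was 0.34 (SE 0.42), a fold of 1.27 with a 95% interval of 0.682 to 2.35 (limma adjusted p = 0.617).

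The second S100a4 probe, nearer the end of the transcript, read -8.54, -0.42 and 1.19 on Bmi1 KO arrays, against -4.06, -2.26 and -0.29 on WT arrays. On the array at -8.54, Bmi1 KO set 2 replicate 3, it was not well above background, while the first probe read 2.26 there, the lowest Bmi1 KO value of that probe. Both probes had positive differences, 0.89 (SE 1.14) for the second (limma adjusted p = 0.632), and neither passed the test. Without Bmi1 KO set 2 replicate 3 the difference of the second probe was 2.00 (SE 0.59, limma adjusted p = 0.148), and over the other arrays left out in turn it ran from 0.52 to 1.26. For the first probe it ran from 0.22 to 0.48.

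S100a6, or calcyclin, which binds the ubiquitin ligase adaptor Cacybp, read 1.95, 2.70 and 3.28 on Bmi1 KO arrays, against 1.62, 2.27 and 3.21 on WT arrays. All but 1 of the Bmi1 KO values lay within the WT range. The difference was 0.45 (SE 0.40), a fold of 1.36 with a 95% interval of 0.752 to 2.46 (limma adjusted p = 0.495). It was 0.42 in set 2 and 0.48 in set 1.

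S100a10, the p11 subunit that binds annexin A2 without needing calcium, read -0.04, 1.52 and 2.65 on Bmi1 KO arrays, against 0.53, 1.19 and 1.56 on WT arrays. The Bmi1 KO values were the more spread, with an SD of 0.83 against 0.34 in WT, and they passed the WT range at both ends, 3 arrays above it and 1 below. The difference of 0.34 (SE 0.44) did not pass the test (limma adjusted p = 0.638). It was 0.10 without Bmi1 KO set 2 replicate 2, which held the highest reading, and 0.58 without Bmi1 KO set 2 replicate 3, which held the lowest.

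S100a11, which pairs with annexin A1 at membranes, read 2.07, 2.68 and 3.30 on Bmi1 KO arrays, against 1.56, 2.46 and 3.23 on WT arrays. Here 1 Bmi1 KO array lay above all WT arrays, and the rest lay within the WT range. The difference was 0.33 (SE 0.38), a fold of 1.25 with a 95% interval of 0.707 to 2.22 (limma adjusted p = 0.605).

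S100a13, which takes part in the secretion of Fgf1 and Il1a outside the classical route, was above background on all 14 arrays. It read -4.98, -3.62 and -2.85 on Bmi1 KO arrays, against -5.30, -3.39 and -2.92 on WT arrays. The difference was 0.08 (SE 0.53), with a 95% interval of -1.05 to 1.20 (limma adjusted p = 0.934). The sign of so small a difference turned under some settings.

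The 4 S100 genes S100a4, S100a6, S100a10 and S100a11 thus differed by 0.33 to 0.45, each by about its own standard error. With array brightness as a covariate, S100a4, S100a6, S100a10 and S100a11 came out at -0.02, 0.05, 0.13 and -0.04. Relative to the all-probe median these 4 genes stood at 1.34 to 1.46 as reported, and at 0.12 to 0.30 with that covariate. Relative to the median of the probes above background on all arrays they stood at 0.59 to 0.71 as reported.

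**Figure D2:**
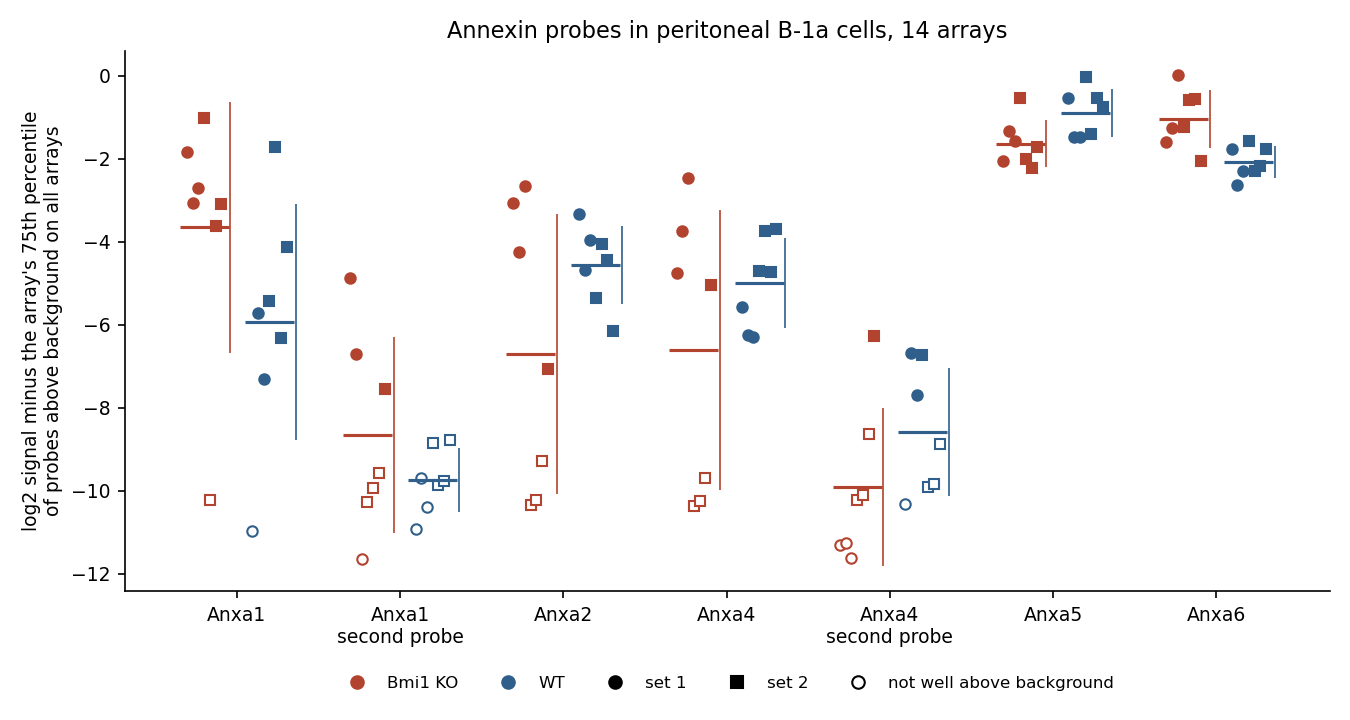
Levels of the 7 annexin probes on the 14 arrays (y axis: log2 signal minus the array's 75th percentile), Bmi1 KO left and WT right of each pair. Symbols are as in the plot of S100 levels. Anxa2 and Anxa4 fall below background on the same 3 Bmi1 KO arrays of set 2. Anxa6 has 5 Bmi1 KO arrays above all WT arrays, among them the 4 with under 40% of probes above background.

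Anxa6, an annexin with an extended core that links membranes to the actin cytoskeleton and cholesterol-rich domains, read -2.06, -1.24 and 0.02 on Bmi1 KO arrays, against -2.62, -2.18 and -1.57 on WT arrays. It was above background on all 14 arrays, and 5 of 7 Bmi1 KO arrays lay above every WT array. These 5 were the 4 dim Bmi1 KO arrays and set 1 replicate 3, at -1.26. Bmi1 KO set 1 replicate 2 and set 2 replicate 4 read -1.60 and -2.06, within the WT range. The mean was -1.04 ± 0.71 in Bmi1 KO cells and -2.07 ± 0.38 in WT cells (SD, n = 7 each). The difference was 1.03 (SE 0.43), a fold of 2.04 with a 95% interval of 1.08 to 3.86, and it did not pass the test over all probes (limma adjusted p = 0.209). It was 0.84 in set 2 and 1.28 in set 1. Without the 4 dim Bmi1 KO arrays it was 0.43.

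Anxa5, which binds phosphatidylserine exposed on dying cells, read -2.22, -1.72 and -0.53 on Bmi1 KO arrays, against -1.48, -0.76 and -0.02 on WT arrays. On 5 of 7 Bmi1 KO arrays it lay below every WT array. The difference was -0.75 (SE 0.42), a fold of 0.595 with a 95% interval of 0.316 to 1.12 (limma adjusted p = 0.312). Its direction turned under 1 of 29 alternatives, scaling to all probes, which gave 0.61. Quantile normalization and the deposited values each gave -0.72. Relative to the all-probe median it was 0.27. Relative to the median of the probes above background on all arrays it was -0.48.

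Anxa1, a glucocorticoid-induced protein and ligand of formyl peptide receptors, varied by several log2 units within each genotype. In set 1 its first probe read -1.83, -3.06 and -2.70 on Bmi1 KO arrays, against -10.98, -5.71 and -7.30 on WT arrays, the WT value at -10.98 being below background. The genotypes did not overlap in that set. In set 2 the probe read -1.01, -10.24, -3.61 and -3.09 on Bmi1 KO arrays, against -5.42, -1.71, -6.31 and -4.13 on WT arrays, the Bmi1 KO value at -10.24 being below background. There they overlapped.
Over both sets the difference was 2.29 (SE 1.48) with a 95% interval of -0.90 to 5.47 (limma adjusted p = 0.364). It was -0.09 in set 2 and 5.46 in set 1 (limma adjusted p = 0.982 and 0.527), each resting in part on 1 array below background. Without Bmi1 KO set 2 replicate 2 the overall difference was 3.52, and without WT set 1 replicate 2 it was 1.43 (limma adjusted p = 0.204 and 0.473, within 0.204 to 0.533 over the arrays left out in turn). With array brightness as a covariate the overall difference was 4.18 (limma adjusted p = 0.698), and without the 4 dim Bmi1 KO arrays it was 3.85. The readings below background are floor values, so the sizes of these differences are approximate.

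The second Anxa1 probe was too dim for the fit. It was above background on 3 of 7 Bmi1 KO arrays, at -4.88, -6.70 and -7.54, and on 0 of 7 WT arrays, where it read -10.93 to -8.78. The 3 detected arrays were not dim ones, and the first probe was detected on each of them. The mean difference was 1.10 (exact permutation p = 0.306), and no fold is given because the Bmi1 KO mean, -8.65, lies below -8.22, the bound set for WT from the lowest detected signal on each WT array. Scaled to all probes it was 2.46 (exact permutation p = 0.00143, the smallest that the 1400 arrangements within sets allow). The all-probe percentile was 3.64 to 6.82 on the 4 dim Bmi1 KO arrays and 7.04 to 8.18 on the other 10 arrays, so that scaling raises a probe at background on the dim ones.

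Peritoneal macrophages express Anxa1, and a macrophage list was read beside it. Of its 10 markers on the array, 3 to 8 were above background on Bmi1 KO arrays and 4 to 10 on WT arrays, and their summed level ran from -2.46 to 1.84 and from -1.44 to 2.82 on the log2 scale. WT set 2 replicate 2 had the highest macrophage sum, 2.82, and also the highest WT reading of the first Anxa1 probe. WT set 2 replicate 4 had a sum of 1.19 and an Anxa1 reading of -4.13. The lowest WT sum, -1.44, and the lowest WT Anxa1 reading, -10.98 and below background, were both on WT set 1 replicate 2. Bmi1 KO set 2 replicate 1 had a sum of 1.15 and the highest Anxa1 reading of all arrays, -1.01. Other arrays went the other way. WT set 1 replicate 4 had a sum of 0.09 and read -7.30, lower than WT set 1 replicate 3, with a sum of -0.87 and a reading of -5.71. Bmi1 KO set 2 replicate 2, the dimmest array, had a sum of 1.84 and the Anxa1 probe below background. Bmi1 KO set 1 replicate 4 had the lowest sum, -2.46, and an Anxa1 reading of -2.70. The part of such cells in the Anxa1 values was not tested, and in bulk RNA fewer cells of a type and less RNA per cell cannot be told apart. Of the 7 granulocyte markers, Ly6g and Csf3r were above background on all 14 arrays, S100a9 and Elane on 3 each, and S100a8, Mpo and Retnlg on no array.

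Anxa2, the membrane partner of S100a10 and a cell-surface binder of plasminogen, separated by set. In set 1 it read -3.07, -4.25 and -2.65 on Bmi1 KO arrays, against -3.32, -4.68 and -3.94 on WT arrays. In set 2 it read -10.36, -10.23, -9.28 and -7.06 on Bmi1 KO arrays, against -5.36, -4.04, -4.43 and -6.14 on WT arrays. The first 3 of those Bmi1 KO values were below background, and all 4 lay below every WT array. The overall difference was -2.14 (SE 0.88), with a 95% interval of -4.03 to -0.25 (limma adjusted p = 0.204). It was -4.24 (SE 0.81) in set 2 and 0.66 (SE 0.94) in set 1 (limma adjusted p = 0.108 and 0.884).

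Anxa4, an annexin best known from epithelial cells, showed the same 3 arrays below background. In set 1 its first probe read -4.75, -3.73 and -2.47 on Bmi1 KO arrays, against -5.58, -6.25 and -6.29 on WT arrays, so that every Bmi1 KO array was above every WT array. In set 2 it read -10.38, -10.25, -9.69 and -5.04 on Bmi1 KO arrays, against -4.70, -3.74, -4.72 and -3.69 on WT arrays, so that every Bmi1 KO array was below every WT array. Over both sets the difference was -1.62 (SE 1.21, limma adjusted p = 0.419), made up of -4.63 (SE 1.06) in set 2 and 2.39 (SE 1.22) in set 1 (limma adjusted p = 0.129 and 0.666). The second Anxa4 probe was outside the fit, being above background on 1 of 7 Bmi1 KO and 3 of 7 WT arrays. Its mean was -9.92 on Bmi1 KO arrays and -8.58 on WT arrays, a difference of -1.34 between mostly background readings (exact permutation p = 0.16). By set, it averaged -11.40 on Bmi1 KO and -8.23 on WT arrays in set 1, and -8.81 and -8.83 in set 2. The set pattern of the first probe was thus not seen in the second, whose readings were mostly background. The second probe was also below background on all 3 Bmi1 KO arrays of set 1, where the first probe was above it.

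**Figure D3:**
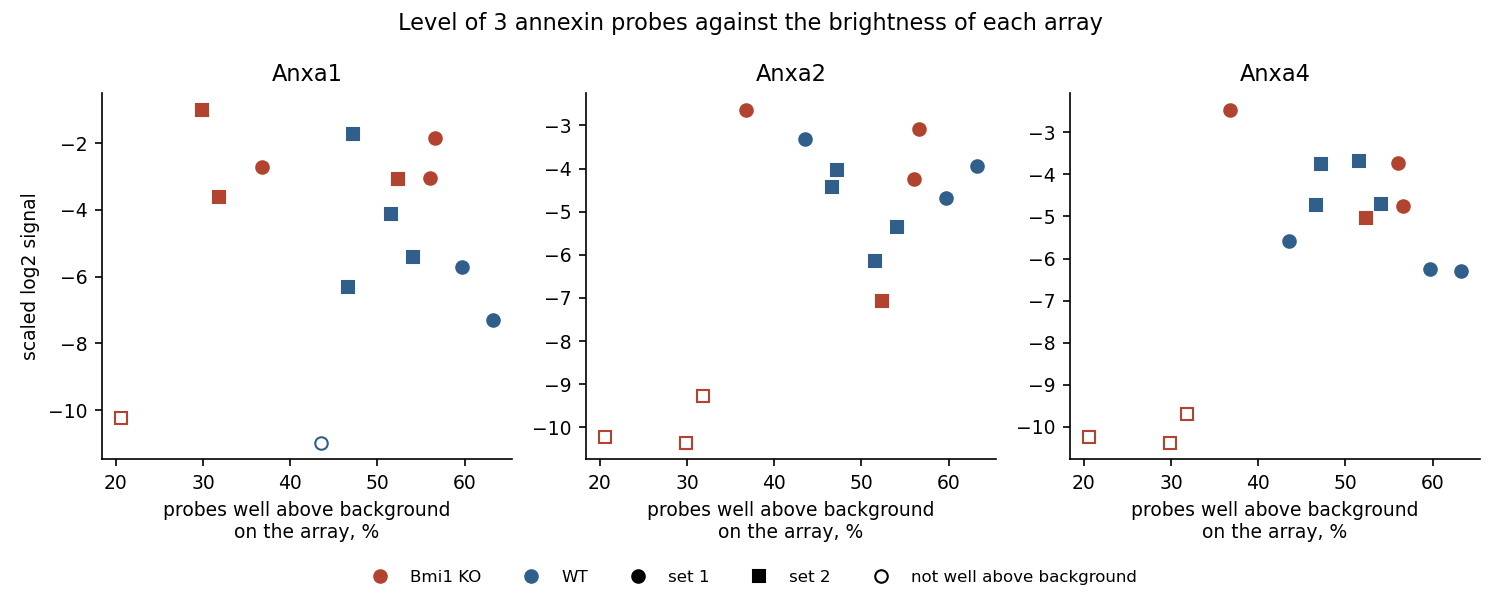
Level of the first Anxa1, Anxa2 and Anxa4 probes (y axis: scaled log2 signal) against the percentage of probes well above background on the same array (x axis). Red is Bmi1 KO, blue WT, circles set 1, squares set 2, and open symbols are not well above background. The 3 Bmi1 KO arrays of set 2 between 20.6 and 31.9% hold the lowest Anxa2 and Anxa4 readings, whereas the Bmi1 KO array of set 1 at 36.8% holds the highest.

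The set difference was tested directly as the Bmi1 KO minus WT difference in set 2 minus that in set 1. It was -4.90 (SE 1.24) for Anxa2, -7.01 (SE 1.61) for Anxa4 and -5.55 (SE 2.70) for Anxa1 (-3.64 without Bmi1 KO set 2 replicate 2), and no probe of the 11 passed in limma (0 of 29677 fitted probes were called, 0%). At an unadjusted p under 0.05, Anxa2 and Anxa4 were 2 of 11, where 3.02% of all fitted probes were. For the other 8 probes it ran from -1.46 to -0.05. Leaving out Bmi1 KO set 2 replicate 4 gave -5.62 for Anxa2 and -8.28 for Anxa4, which then passed (limma adjusted p = 0.0442 and 0.00659, against 0.915 or more under every other alternative tried). The 3 Bmi1 KO arrays left in that set are all dim, with 29.9, 20.6 and 31.9% of probes above background, and both probes are below background on each of them. These values are therefore set against floor readings, and neither their sizes nor their p-values are exact. Set 2 Bmi1 KO genotype and low brightness cannot be told apart on them. On the brighter array left out there, at 52.4%, Anxa2 was still below all WT arrays of either set, at -7.06, and Anxa4 read -5.04, within the range of all WT arrays. Without all 4 dim Bmi1 KO arrays the overall differences were -0.64 for Anxa2 and 0.75 for Anxa4.

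**Figure D4:**
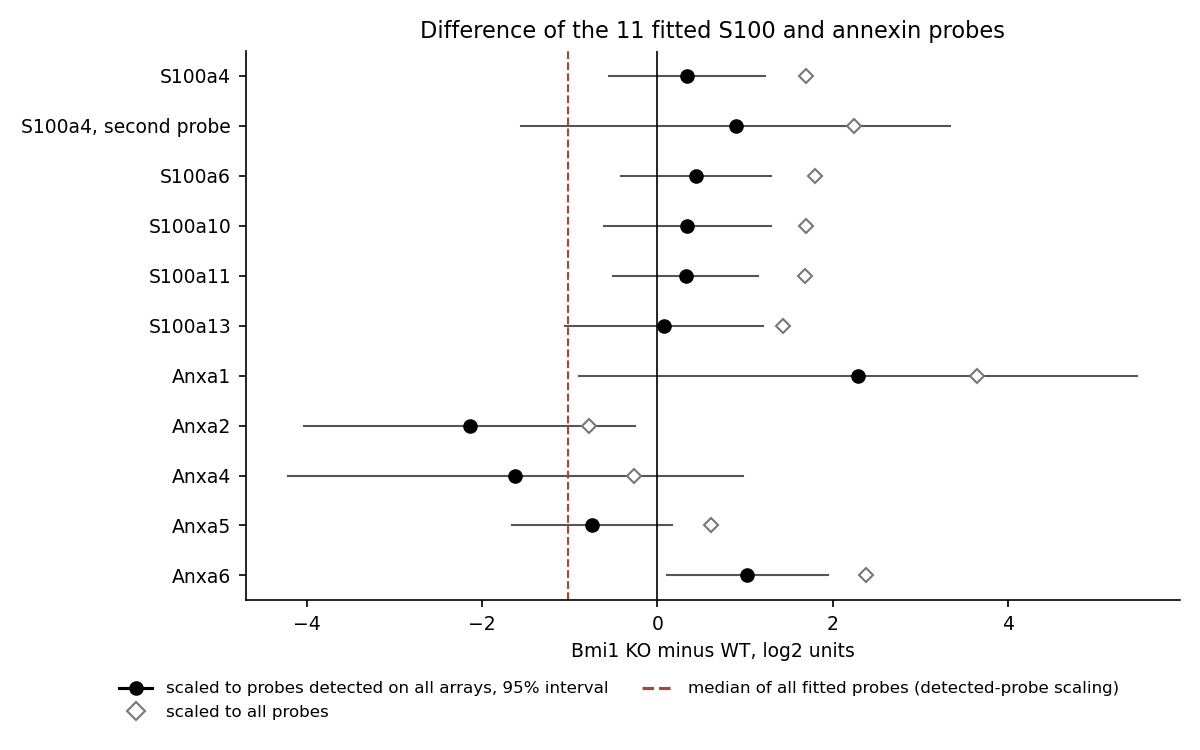
Bmi1 KO minus WT difference (x axis, log2 units) of the 11 fitted probes. Black points and lines are the estimates and 95% intervals under scaling to probes detected on all arrays, open diamonds the estimates under scaling to all probes, the dashed line the median of all fitted probes, -1.02. Intervals of Anxa2 and Anxa6 leave out 0, and neither passes the adjusted test.

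The known pairs can be read side by side. S100a10 had 0.34 and its partner Anxa2 -2.14, and on the 3 arrays where Anxa2 was below background S100a10 read 1.49, 2.65 and -0.04. S100a11 had 0.33 and its partner Anxa1 2.29. Neither contrast between partners was tested.

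Of the remaining 12 genes of the S100 group on the array, 4 passed the filter on dim probes and 0 rose or fell in limma. None of them did so at an unadjusted p under 0.05 either, where 0.718% of all fitted probes were higher and 20% lower. S100a1, best known from heart muscle, averaged -5.18 in Bmi1 KO cells and -3.02 in WT cells, a difference of -2.16 (limma adjusted p = 0.290). S100pbp, which encodes a binding protein of S100 proteins, had a difference of -1.76 and was above background on 4 Bmi1 KO and 7 WT arrays. S100a14 had -1.09 but was above background on 2 Bmi1 KO and 4 WT arrays, so it entered the fit through WT alone. S100a8 and S100b were above background on no array. The median over the other 3 was -1.76, beside -1.02 for all fitted probes.

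Of the remaining 7 annexins, 5 were fitted and 0 rose or fell in limma. Anxa8 and Anxa9 entered the fit through 1 genotype alone. Among the other 3, with a median of -0.61, 1 was higher and 1 lower in Bmi1 KO at an unadjusted p under 0.05. Over all fitted probes these shares were 0.718% and 20%. Anxa11 averaged -4.46 in Bmi1 KO cells and -0.55 in WT cells (limma adjusted p = 0.191). It was above background on 5 Bmi1 KO and 7 WT arrays, so the Bmi1 KO mean (SD 4.28) mixes detected and background readings. Anxa9 averaged -6.24 in Bmi1 KO cells and -8.44 in WT cells (limma adjusted p = 0.195), but was above background on 6 Bmi1 KO and 3 WT arrays, so most WT readings were background. Anxa7 averaged -2.63 in Bmi1 KO cells and -3.73 in WT cells (limma adjusted p = 0.241). Anxa13 was above background on no array.

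Partners and receptors of the 2 families had 14 of 19 genes in the fit, 0 of which rose or fell in limma. Fpr1, Fgf1 and Cav1 entered through 1 genotype alone. Of the other 11, with a median of -1.40, 0 were higher and 1 was lower at an unadjusted p under 0.05. Over all fitted probes 0.718% were higher and 20% lower at that p. Plscr1, a phospholipid scramblase, came nearest to the threshold, at -6.08 in Bmi1 KO cells against -1.11 in WT cells (difference -4.97, SE 1.13, limma adjusted p = 0.0736). It was detected on 4 of 7 Bmi1 KO arrays and on 7 of 7 WT arrays. Fgf1, exported with S100A13, had a difference of -2.51 (limma adjusted p = 0.174), with most Bmi1 KO readings at background (above it on 3 Bmi1 KO and 7 WT arrays). Ahnak, a giant scaffold bound by the S100A10 and annexin A2 complex, had -1.65 (limma adjusted p = 0.249). The penta-EF-hand proteins, calcium sensors such as sorcin and the calpains, had 6 of 7 genes fitted and 0 called in limma. Pef1 entered through WT alone (above background on 3 Bmi1 KO and 6 WT arrays). Of the other 5, with a median of -0.10, 0 were higher and 1 was lower at an unadjusted p under 0.05. That 1 of 5 stands beside the same 20% lower of all fitted probes. Capn1, Sri and Pef1 had differences of -3.12, -2.70 and -1.45 (limma adjusted p = 0.213, 0.289 and 0.383). Capn1 was above background on 4 Bmi1 KO arrays and Sri on 5, each on 7 WT arrays, so their Bmi1 KO means include background readings.

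S100a6 and Anxa2 were each correlated with 20404 gene names across the 14 arrays. Names with prefixes or endings such as LOC, Gm, ENSMUST or Rik were left out of the ranking. Among the rest, the gene symbols whose probe followed S100a6 most closely were Rpl34 (Pearson's r = 0.938), BC004004 (r = 0.896) and Rpl34-ps1 (r = 0.884). Those that followed Anxa2 most closely were Vdac1 (r = 0.970), Amz2 (r = 0.966) and Ghdc (r = 0.958). These values describe arrays that share slides and differ in brightness. The Anxa2 correlations include its floor readings on the dim Bmi1 KO arrays of set 2.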

How the data were processed

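The authors' scanner output gives an intensity per spot from Agilent Feature Extraction (version 10.7.3.1) and mm9 positions, per the file headers. Per the labels' protocols, total RNA was column-purified and Cy3-labelled by a protocol that is not disclosed. Marks for signal well above background and for outliers are other columns deposited by the authors. The deposited table of processed log2 values, made with a tool not named in the labels or headers, was an alternative: it follows the quantile-normalized scanner values, is not centred by gene, and higher means more signal.

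Levels computed here are log2 of the processed signal minus each array's 75th percentile over the 7055 probes detected on all 14 arrays, because fewer than 50% of probes were detected on the median array and the percentile over all probes lies among background on the dimmest array. Spots marked as outliers were dropped and repeat spots averaged; 0 spots were saturated. The fit took probes marked as detected on 4 or more of the 7 arrays of at least 1 genotype. limma 3.58.1 in R 4.3.3 tested genotype with set as a covariate, two-sided, Benjamini-Hochberg over all fitted probes, threshold 0.05. Dim probes and brightness were tested by exact permutation within sets (1400 arrangements). The fits were tested on simulated data. The number of arrays limits the precision. Set 1 lies on slide 1 and set 2 on slides 2 (4 Bmi1 KO and 2 WT arrays) and 3 (2 WT arrays), and slide and scan coincide.

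A gene of the related lists is represented by its brightest fitted probe, and up to 3 per list by smallest p are named. For S100a6 and Anxa2 the 3 most correlated gene symbols are named, leaving out names with prefixes or endings such as LOC, Gm, ENSMUST or Rik. The members, lists and alternatives, the exclusion of dim arrays included, were chosen with earlier results of these data known. Symbols come from the array annotation and may be outdated.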

Additional observations from a re-analysis of the deposited data

Results flagged for a closer look

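Within the 7 arrays of a genotype, 2 readings of an S100 or annexin probe stood farther from the rest than Dixon's 95% limit, and chance flags about 1 in 20 of the 28 groups looked at. The second S100a4 probe read -8.54 on Bmi1 KO set 2 replicate 3, below background, with 73.9% of the group's range between it and the next array. The first Anxa1 probe read -10.24 on Bmi1 KO set 2 replicate 2, below background, with 71.8% of the range. No difference of an S100 or annexin probe between the sets passed the test with all arrays in.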

How the results depend on the processing

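No S100 or annexin probe passed the test of genotype under any of the 29 settings tried. Over all probes, the counts higher and lower in Bmi1 KO were 1 and 131 as reported. They were 1 and 8 scaled to all probes, 1 and 25 with quantile normalization or the deposited values, 1 and 43 with normexp, 1 and 60 with 1 probe per gene name, 0 and 44 without the filter, 0 and 1 over probes above background on all arrays, 0 and 42 with slide as a block, 0 and 6 with brightness as a covariate or without the 4 dim Bmi1 KO arrays, and 0 and 0 within slide 1 or slide 2. Leaving out 1 array gave 0 to 15 higher and 9 to 2043 lower, the most without Bmi1 KO set 2 replicate 4.

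The replicate block left 0 higher and 5 lower probes. Same-numbered samples had correlated deviations of -0.22 to 0.19, so the numbers were not taken to pair samples.

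Directions turned for S100a4 (-0.021) and S100a11 (-0.042) with brightness as a covariate, for the second S100a4 probe (-0.017) and S100a13 (-0.79) within slide 2, for S100a13 (-0.083) with slide as a block, for Anxa4 (0.75) without the 4 dim arrays, for Anxa2 (0.66) and Anxa4 (2.39) within slide 1, and, scaled to all probes, for Anxa5 (0.61) and the second Anxa4 probe (0.011). With 1 array left out, S100a13 ranged from -0.16 to 0.27. The set dependence called 2 of the 11 probes without Bmi1 KO set 2 replicate 4, Anxa2 and Anxa4, and 0 under its other settings. The causes were not tested.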
